A study of Sus scrofa with 5 samples.

Results

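The genes described here build the contacts between neighbouring cells of pig skin, namely cadherins, claudins and other tight junction genes, desmosome genes and connexins. Members were taken by gene symbol alone, as numbered cadherins (CDH), claudins (CLDN), desmogleins (DSG), desmocollins (DSC) and connexins of the GJA, GJB and GJC groups, together with DSP, JUP, PKP1, PKP2, PKP3, TJP1 and OCLN. The rule found 71 of 20286 measured genes, made up of 22 cadherins, 22 claudin and tight junction genes, 16 connexins and 11 desmosome genes. No expression value was used to choose them.

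Pigs received full-thickness wounds that were covered with split-thickness skin grafts, which are sheets of epidermis with part of the dermis. Grafts were left untreated or kept under a hydrogel that carried an inhibitor of focal adhesion kinase (FAK, an enzyme that relays signals from the matrix contacts of a cell), with dressings changed every other day. Untreated and inhibitor grafts were each explanted at day 7 and at day 90, and unwounded skin was collected as the reference. Each of these 5 conditions is 1 single-cell library of freshly isolated, enzymatically digested cells. The labels speak of multiple pigs but not of how many stand behind a library, nor of their strain or age. With 1 library per condition no difference could be set against the spread between animals, no p-value is given, and all intervals are 95% intervals that cover counting error only.

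Cadherins are calcium-dependent adhesion proteins whose tails bind catenins and, through them, actin. In adherens junctions CDH1 (E-cadherin) joins epithelial cells and CDH5 (VE-cadherin) joins endothelial cells. Desmosomes use the related desmogleins and desmocollins, which are tied to keratin filaments by plakoglobin (JUP), plakophilins (PKP) and desmoplakin (DSP), and they give the epidermis its mechanical strength. Claudins and occludin (OCLN) seal the tight junctions of epithelia and vessels, with TJP1 (ZO-1) as a scaffold on the inner side. Connexins assemble into gap junction channels that pass ions and small molecules between cells.

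The libraries held between 1883 and 10962 cell barcodes and between 18485301 and 79671374 unique molecular identifiers (UMIs, each marking 1 captured RNA molecule). After filtering, 26842 cells remained, with median UMIs per cell between 5495 and 9602. Cells were clustered without any member gene and clusters were named from other marker genes, so the levels below do not rest on the members. Levels are CPM, the UMIs of a gene per 1000000 UMIs of all cells of a class in a library. A value for a class needs 25 cells, and because the chemistry reads the 3′ end, levels are compared between classes and libraries but not between genes.

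Several features of the libraries bear on the results. The unwounded library shared 133 barcodes with the untreated and 152 with the inhibitor graft at day 90, with median UMI ratios of 75.9 and 90.4 between the larger and the smaller copy, while the 2 day 90 grafts shared 70 barcodes at a ratio of 1.05. The remaining pairs of libraries shared between 3 and 32. Keratinocyte-like cells were few at day 90, 29 in the untreated and 65 in the inhibitor graft, and in each of these libraries 8 of them were minor copies of barcodes of the unwounded library, which held 3.0% and 0.894% of the UMIs of the class. In unwounded skin, barcodes shared with another library carried 39.9% of the keratinocyte-like UMIs and 39.9% of the blood endothelial-like UMIs. Among the blood endothelial-like cells, cluster 15 had median UMIs per cell between 16678 and 32783 and RGS5, a defining pericyte gene, at 1837 to 2670 CPM, against 11.3 to 33.5 CPM in endothelial cluster 2 and 3473 to 3855 CPM in the mural-like class, the pericytes and smooth muscle cells of vessel walls. It made up 26.1%, 11.9%, 23.8%, 27.8% and 23.1% of the blood endothelial-like cells in the untreated and inhibitor grafts at day 7, the same grafts at day 90 and unwounded skin. Class levels are sums of UMIs, and clusters 2 and 4 had medians of 4006 to 9914 UMIs per cell where they held 25 cells. Cluster 15 therefore weighs more in the class levels than its share of cells. Values are therefore also given by cluster where cluster 15 moves them.

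Of the 71 genes, 36 reached 50 CPM in at least 1 class of 1 library. These were 10 of 11 desmosome genes, 9 of 22 claudin and tight junction genes, 9 of 16 connexins and 8 of 22 cadherins. Another 32 stayed under 20 CPM in every class, among them CDH3 (P-cadherin, at most 6.50 CPM) and the hair desmoglein DSG4 with 1 UMI in all. No UMI was seen for CDH20, CLDN16, CLDN17, CLDN25, GJA3 and GJB7. CDH8 and CDH12 reached 21.4 and 22.6 CPM in Schwann-like cells, and CLDN10 reached 29.5 CPM in mural-like cells of unwounded skin. In the RefSeq gene order of the pig assembly Sscrofa11.1, DSC2, DSC1, DSG1, DSG4, DSG3 and DSG2 stand as a run of 6 neighbours.

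Many members that could be ranked were highest in 1 class in each graft. Of 28 members that could be ranked over 9 classes present in every graft, 24 were highest in the same class in all 4 grafts, where 43.5% of all genes ranked in the same way were, and 17 led the next class by 2-fold or more. The keratinocyte-like class was the home of 13 of the 28 (4.54% of all genes), among them CDH1, DSG1, DSG3, DSC1, DSC2, DSP, JUP, PKP1, PKP3, CLDN1, CLDN4 and GJB6. The smallest lead over the next class was 2.09-fold for JUP, and CLDN4 led at least 35.7-fold. The lymphatic endothelial-like class was the home of 3, CLDN5 and CLDN11 among them (3.95% of all genes), and the mural-like class that of GJA4, GJC1 and CDH6 (4.07%). CDH5 and CDH13 were highest in blood endothelial-like cells (3.39%), CDH19 and CDH2 in Schwann-like cells (5.83%) and CDH11 in fibroblast-like cells (4.1%). The leads of CDH5 and CDH13 were small, at least 1.03-fold and 1.06-fold. GJA1, TJP1, GJA5 and GJC3 were highest in different classes in different grafts.

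**Figure D1:**
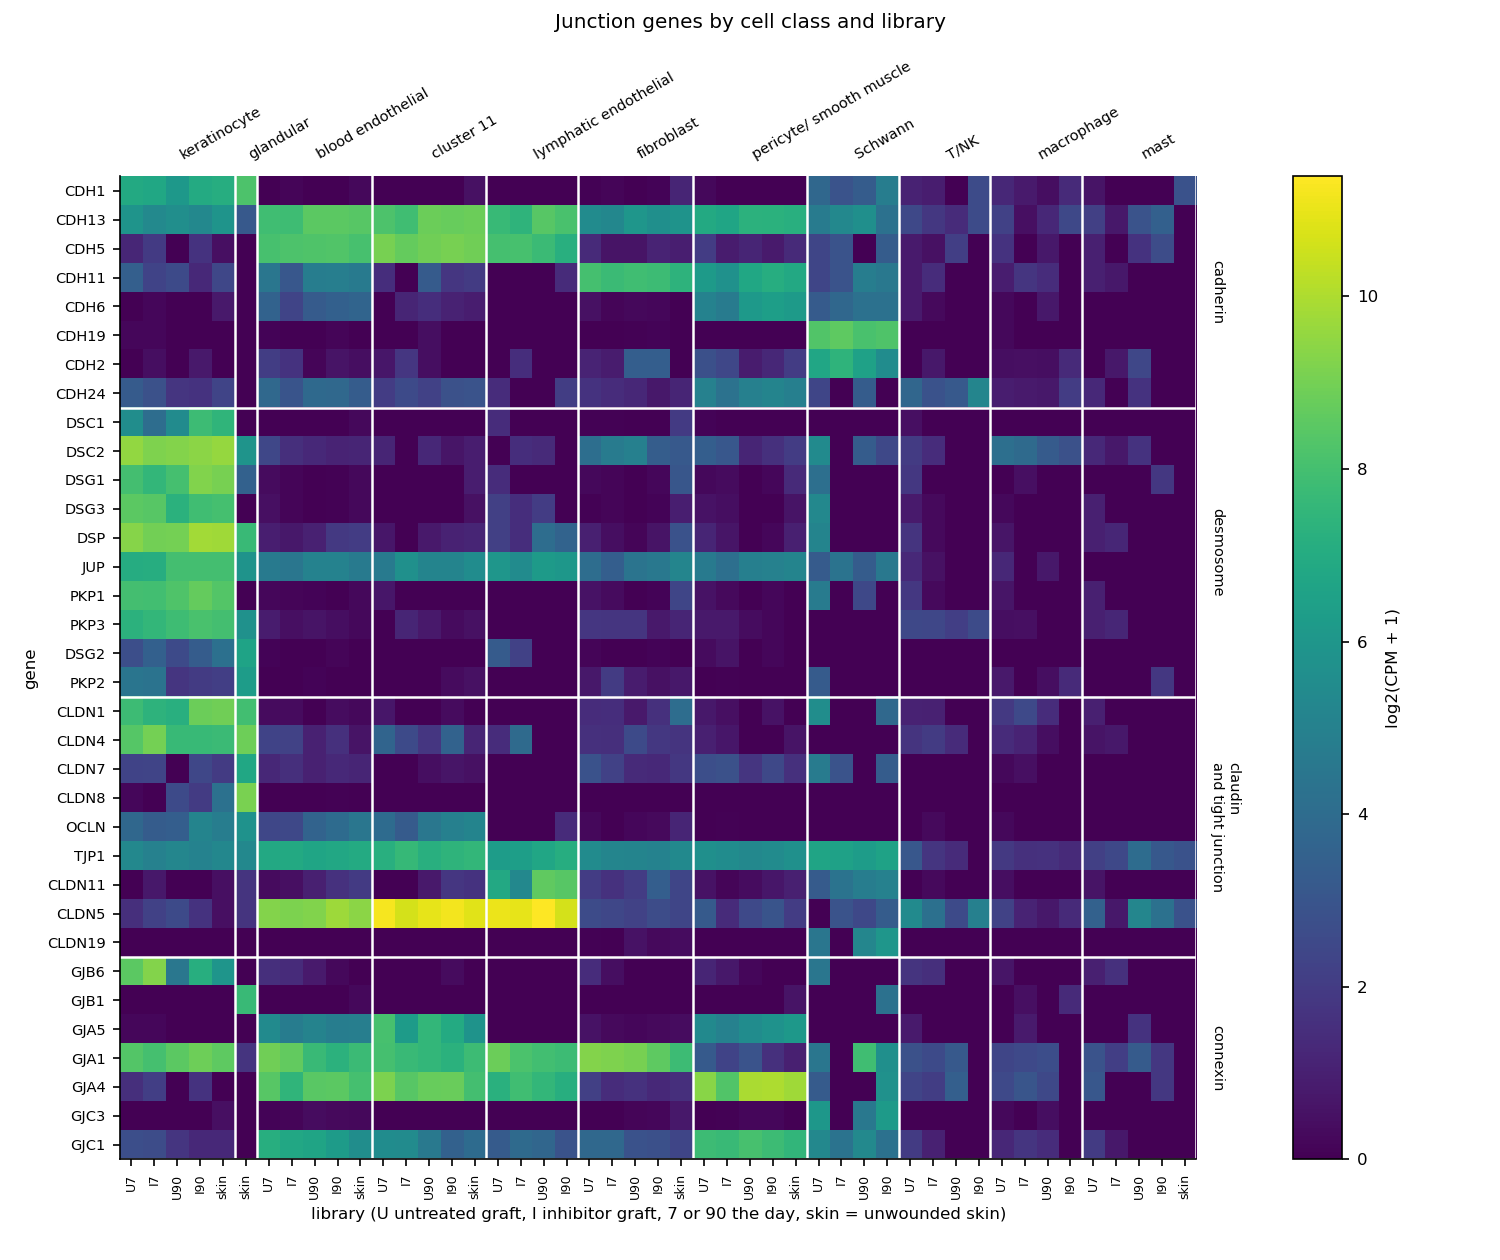
Levels of 34 junction genes that reached 50 CPM, as log2(CPM + 1), with genes in rows grouped by family and libraries in columns grouped by cell class. Desmosome genes are bright in the keratinocyte-like columns, CLDN5 in the 3 endothelial groups of columns, GJA4 in the mural-like columns (pericyte and smooth muscle), and CDH19 in the Schwann-like columns.

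Several desmosome genes were almost limited to the epidermis. Over the 5 libraries, keratinocyte-like and glandular cells together held 97.9% to 100% of all DSC1 UMIs, 98.0% to 99.3% of DSG1, 96.9% to 99.4% of DSG3 and 97.6% to 99.7% of PKP1. DSP was held to 88.5% to 98.8% and CDH1 to 96.0% to 98.6%. The shares were wider for CLDN1 (69.6% to 96.5%), CLDN4 (56.3% to 98.6%) and PKP3 (53.2% to 98.9%). In the untreated day 90 graft these cells held 17.1% of the DSC2, 26.7% of the PKP2 and 7.44% of the JUP UMIs. Fibroblast-like cells held 70.2% of DSC2 there. Shares of UMIs depend on the cells captured, in that graft 29 keratinocyte-like against 2015 fibroblast-like cells. By level, DSC2 in fibroblast-like cells was at most 4.86% of that in keratinocyte-like cells over the 5 libraries. Free RNA from broken cells was low by the keratin KRT5, whose level in blood endothelial-, fibroblast- and mural-like cells was at most 0.338% of its level in keratinocyte-like cells. KRT5 reached 0.795% in T and natural killer-like cells and 0.494% in mast-like cells. The fibroblast gene COL1A1 reached 7.77% of its fibroblast-like level in mural-like cells. JUP stood well above the KRT5 trace outside the epidermis, at 44.4 to 72.0 CPM in the lymphatic endothelial-like cells of the grafts and at 9.55 to 34.8 CPM in fibroblast-like cells. JUP also joins classical cadherins in adherens junctions, so it is not a gene of desmosomes alone.

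Within the epidermis, the members did not keep 1 common level across libraries. DSC1 (ENSSSCG00000003726), the desmocollin of the upper epidermal layers, stood at 47.3 CPM in the untreated and 15.8 in the inhibitor graft of day 7, at 43.7 and 224 at day 90, with 173 in unwounded skin. Its partner DSG1 showed a like split with 256 and 184 CPM at day 7, 265 and 596 at day 90, with 531 in unwounded skin. Both were low in the day 7 grafts and the untreated day 90 graft, and high in the inhibitor day 90 graft and unwounded skin. CLDN1, whose loss makes the epidermis leak water, showed the same split at 222 and 164 CPM, 146 and 456 CPM, and 478 CPM. OCLN did so too, with 12.9, 8.81, 9.72, 34.1 and 27.2 CPM in that order of libraries.

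The connexin GJB6 (connexin 30, listed as ENSSSCG00000036474) had another pattern. It stood at 367 CPM in the untreated and 617 in the inhibitor graft of day 7, at 21.9 and 142 at day 90, with 59.6 in unwounded skin, so the 2 day 7 grafts were highest. CLDN4 was also highest at day 7, with 336 and 507 CPM, against 204 and 202 at day 90, with 216 in unwounded skin. PKP2, a plakophilin of simple epithelia and heart muscle, stood at 20.4 and 19.0 CPM at day 7 and at 2.43 to 3.31 CPM in the other 3 libraries. JUP was the reverse, with 132 and 137 CPM at day 7 and 250 to 255 CPM elsewhere.

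The other keratinocyte genes described here differed in pattern. DSC2 lay between 584 and 775 CPM, PKP1 between 244 and 421 and PKP3 between 158 and 282. DSG3 lay between 153 and 363 CPM, with both day 7 grafts above the other libraries. DSP, the plakin that links the plaque to keratin, lay at 641 and 504 CPM at day 7, 513 and 905 at day 90, with 868 in unwounded skin. DSP thus showed the split of DSC1, DSG1 and CLDN1, with smaller differences. CDH1 was lowest in the untreated day 90 graft at 65.6 CPM and lay between 109 and 137 elsewhere. GJA1 (connexin 43), which most skin cells make, ranged from 259 to 463 CPM.

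**Figure D2:**
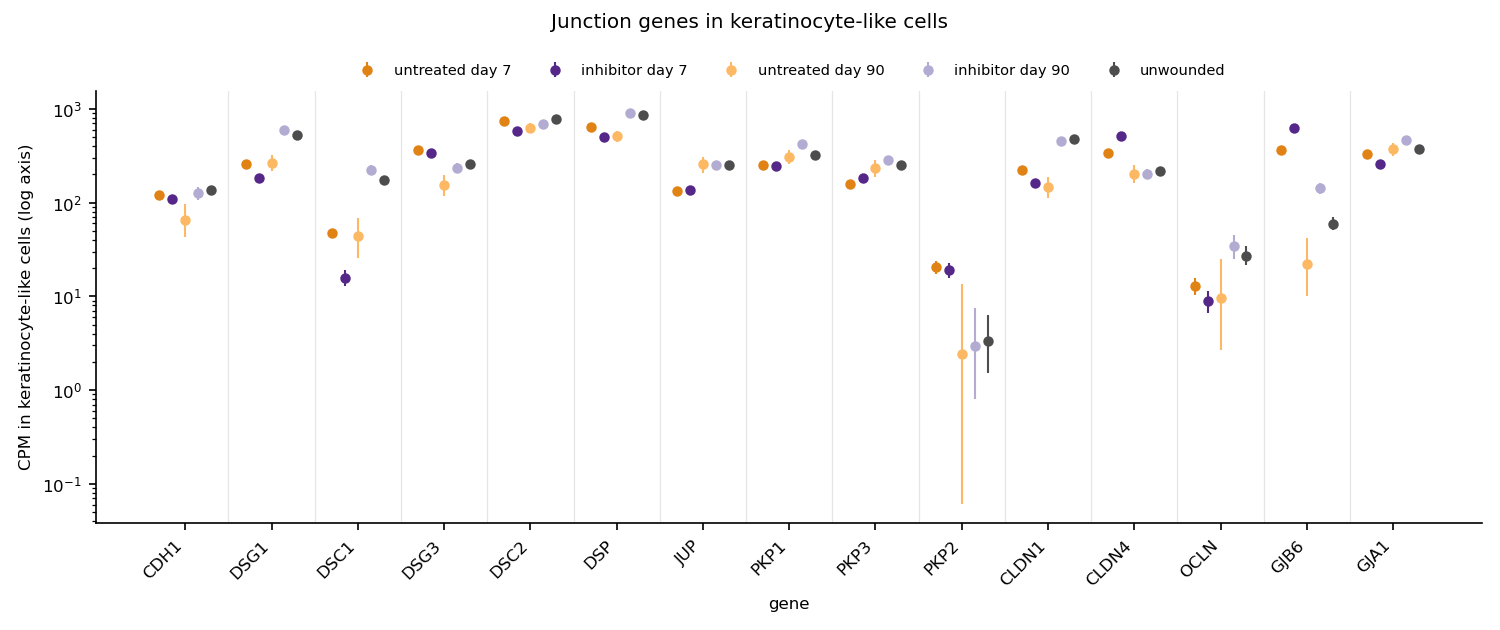
CPM of 15 junction genes in keratinocyte-like cells on a log axis, with 1 point per library and bars for the 95% Poisson interval of the count. GJB6, CLDN4 and PKP2 lie highest in the 2 day 7 grafts, while DSC1, DSG1, CLDN1 and OCLN lie highest in the inhibitor day 90 graft and unwounded skin.

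Epidermal layers are known to differ in their desmosome proteins, so the class was also split. At a finer resolution the keratinocyte-like cells fell into cluster 13, led by the basal genes KRT15, COL17A1 and KRT5, and cluster 36, led by KRTDAP, KRT1 and KRT10, which mark cells that have left the basal layer. Cluster 36 made up 15.9% of the class in the untreated against 12.1% in the inhibitor-treated day 7 graft, 20.7% and 50% at day 90, with 40% in unwounded skin. The 2 libraries with the highest shares, the inhibitor day 90 graft and unwounded skin, are also those with the highest DSC1, DSG1, CLDN1 and OCLN, and the part of the shares in those levels was not tested. In cluster 36 DSG1 stood at 890 and 773 CPM at day 7, 920 in the inhibitor day 90 graft and 888 in unwounded skin, and CLDN1 at 709, 666, 638 and 709 CPM. Within this cluster the day 7 grafts thus stood close to unwounded skin, with ratios of 1.0 and 0.871 for DSG1 and 1.0 and 0.939 for CLDN1. In cluster 13, by contrast, CLDN1 stood at 132 and 75.4 CPM at day 7 against 306 in unwounded skin, ratios of 0.431 and 0.247, and DSG1 had ratios of 0.525 and 0.306.

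DSC1 and the day 7 genes also differed between the clusters. DSC1 stood at 272 and 95.8 CPM in cluster 36 at day 7, 388 in the inhibitor day 90 graft and 334 in unwounded skin, and at 5.78, 1.76, 28.1 and 52.2 CPM in cluster 13. The inhibitor day 7 graft was the low library in both clusters. GJB6 in unwounded skin was nearly limited to cluster 13, at 103 CPM against 1.72 CPM in cluster 36, and the inhibitor day 90 graft showed the same split at 311 against 4.09 CPM. At day 7 it was high in both, at 384 and 631 CPM in cluster 13 and 272 and 536 CPM in cluster 36. CLDN4 showed the opposite arrangement in unwounded skin, at 63.2 CPM in cluster 13 and 419 CPM in cluster 36. In the day 7 grafts it stood at 289 and 440 CPM in cluster 13, which is 4.57-fold and 6.96-fold the unwounded level, and at 595 and 893 CPM in cluster 36, which is 1.42-fold and 2.13-fold. DSG3 in cluster 36 stood at 609 and 675 CPM at day 7, 208.5 in the inhibitor day 90 graft and 270.5 in unwounded skin. In cluster 13 it stood at 318, 282, 273 and 251 CPM in the same order. The clusters of the untreated day 90 graft held 23 and 6 cells and are not compared.

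**Figure D3:**
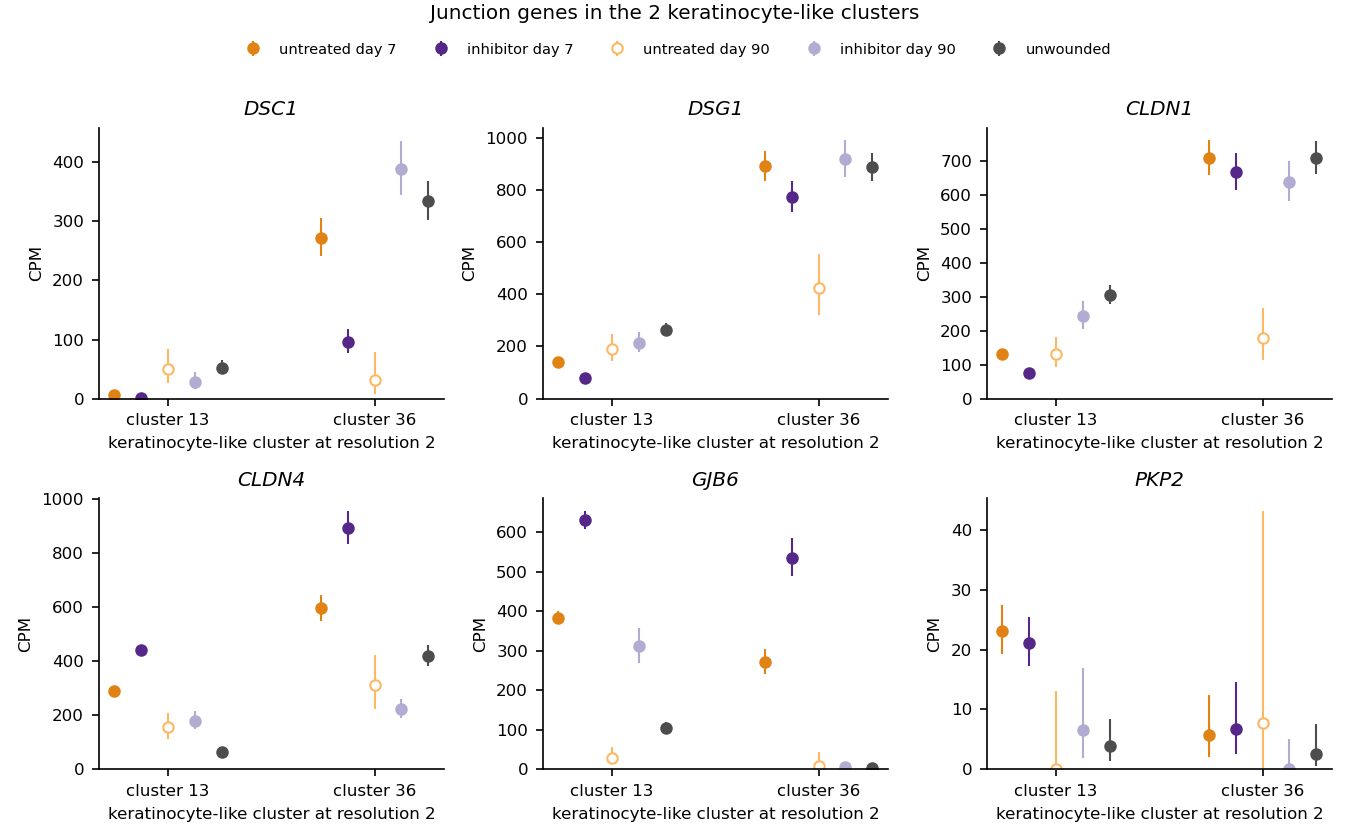
CPM of 6 junction genes in the 2 keratinocyte-like clusters, cluster 13 (KRT15, COL17A1) and cluster 36 (KRTDAP, KRT10), with 1 point per library and 95% Poisson bars. Open points hold under 25 cells. GJB6 is near 0 in cluster 36 of unwounded skin and of the inhibitor day 90 graft and high there in both day 7 grafts, and CLDN4 in cluster 13 is highest in the day 7 grafts.

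A small group of glandular cells carried a different set. This class held 38 cells in unwounded skin, 22 and 24 cells in the untreated and inhibitor grafts at day 90, and at most 1 at day 7. In unwounded skin 9 of the 38 cells had barcodes shared with another library, and these carried 61.5% of the UMIs of the class. Shared barcodes carried 31.5% and 34.1% in the untreated and inhibitor grafts at day 90. Levels without the shared barcodes are not given for this class. In unwounded skin CLDN8, a claudin of ducts, stood at 542 CPM there, and these cells held 90.5% of all CLDN8 UMIs of the library. GJB1 (connexin 32) stood at 209.9 CPM with 98.4% of its UMIs in these cells, CLDN7 at 109.0 CPM and DSG2, the desmoglein of simple epithelia, at 97.4 CPM. PKP2 at 77.7 CPM and OCLN at 55.7 CPM were also at their highest in this class, as was CDH1 at 298 CPM. In the smaller groups of day 90 cells CLDN8 stood at 225 and 397 CPM and GJB1 at 269.8 and 268 CPM. Both day 90 groups held fewer cells than the minimum set for a class value, so these levels are not compared.

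Endothelial junction genes followed the kind of vessel. CDH5 was present in every endothelial class, at 272, 298, 301, 316 and 272 CPM in the blood endothelial-like cells of the untreated and inhibitor day 7 grafts, the day 90 grafts and unwounded skin, and endothelial classes held 87.3% to 96.1% of its UMIs. It was higher in cluster 11, an unnamed endothelial cluster with GPIHBP1, BTNL9 and CD36 among its genes, at 409 to 537 CPM. CLDN5, the main claudin of endothelium, set that cluster apart further, at 2396, 1598, 1994, 2368 and 1866 CPM against 571 to 838 CPM in blood endothelial-like cells. Lymphatic endothelial-like cells of the grafts had as much, from 1613 to 2686 CPM.

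Other members separated these vessels. CLDN11 stood in lymphatic endothelial-like cells at 118 and 39.1 CPM at day 7 and at 388 and 349 CPM at day 90, higher at day 90 than at day 7 in either arm. GJA5 (connexin 40), known from arterial endothelium, stood in cluster 11 at 272 and 75.6 CPM at day 7, 187 and 124 at day 90, with 56.6 in unwounded skin. Mural-like cells also carried GJA5, with 20.8% to 58.55% of its UMIs over the libraries. In unwounded skin its level in mural-like cells was above that in cluster 11. In endothelial cluster 2, led by the venular gene ACKR1, GJA5 stood at 0 to 0.966 CPM. CDH13 (T-cadherin, which lacks a cytoplasmic tail) ran through all vessels, at 227 to 368 CPM in blood endothelial-like cells, 238 to 459 in cluster 11 and 104 to 159 in mural-like cells. TJP1 was likewise spread, at 103 to 124 CPM in blood endothelial-like cells, 143 to 196 in cluster 11 and 38.5 to 51.3 in mural-like cells.

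Among the connexins of the vessel wall was GJA4 (connexin 37, listed as ENSSSCG00000039983). It stood at 653 CPM in mural-like cells of the untreated and 309 of the inhibitor graft at day 7, at 976 and 1005 at day 90, with 883 in unwounded skin. Blood endothelial-like cells had 342 and 175 CPM at day 7, 356 and 365 at day 90, with 258 in unwounded skin, and by cluster it stood at 448 to 627 CPM in cluster 15 and at 10.4 to 78.0 CPM in clusters 2 and 4. Cluster 11 had 253 to 558 CPM. The inhibitor day 7 graft was thus lowest in the mural and in the blood endothelial-like class. GJC1 (connexin 45) stood at 181 to 269 CPM in mural-like cells. GJA1 stood at 1.02 to 8.38 CPM there but at 624, 581, 537, 382 and 222 CPM in fibroblast-like cells, with unwounded skin the lowest.

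Cadherins also divided the stroma. CDH11 (OB-cadherin) stood at 261, 215, 240, 227 and 164 CPM in fibroblast-like cells, which held 56.2% to 83.8% of its UMIs, and at 52.7 to 136 CPM in mural-like cells. CDH6 was a mural gene, at 32.5 and 25.7 CPM at day 7, 71.5 and 82.2 at day 90, with 72.2 in unwounded skin, with 66.7% to 83.7% of its UMIs in that class. Within it, cluster 1 had 2.74 to 16.5 CPM of CDH6 and cluster 5, led by MYH11 and CNN1, had 45.9 to 139 CPM. CDH24 stood at 18.6 to 33.8 CPM in the mural class and at 53.6 CPM in cycling cells of the untreated day 90 graft. Schwann-like cells, 27 to 37 a graft, had CDH19 at 281 to 374 CPM, which is 95.4% to 100% of its UMIs over the libraries, and CDH2 (N-cadherin) at 45 to 168 CPM. Of the CDH2 UMIs, Schwann-like cells held only 0% to 15.6% over the libraries. Fibroblast-like cells held 84.05% and 75.7% of them at day 90, and mural-like cells 39.75% and 47.9% at day 7. In Schwann-like cells the myelin claudin CLDN19 stood at 21.4 and 0 CPM at day 7 and 36.2 and 63.0 at day 90, and GJC3 at 64.3, 0, 22.6 and 72.0 CPM. With 155142 UMIs in the class in the inhibitor day 7 graft, 3 UMIs would come to 19.3 CPM. The 0 there thus does not show that CLDN19 and GJC3 were absent.

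**Figure D4:**
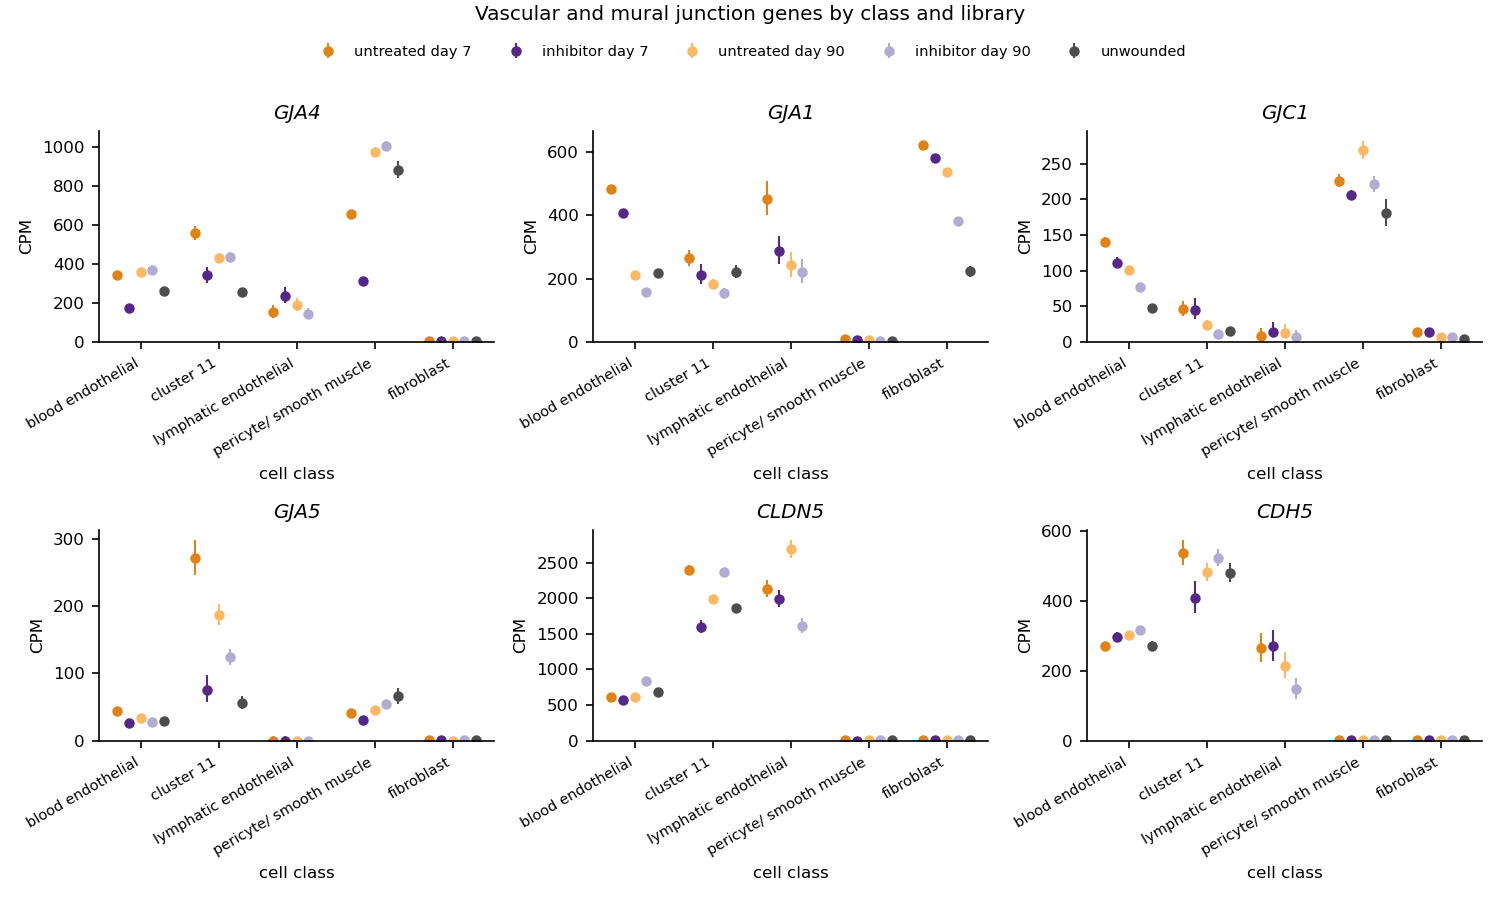
CPM of GJA4, GJA1, GJC1, GJA5, CLDN5 and CDH5 in 5 cell classes, with 1 point per library and 95% Poisson bars. GJA4 is highest in mural-like cells and lowest there in the inhibitor day 7 graft, and CLDN5 is highest in cluster 11 and in lymphatic endothelial-like cells.

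The treatment comparison set the inhibitor graft against the untreated graft of the same day, in the 4 largest structural classes. Members were compared at 20 CPM or more in either library and at least 50 UMIs in the pair, and a ratio of 1.5-fold is a rule of size, not a test. At day 7, 17 members were compared in keratinocyte-like cells, and 2 were higher, 1 lower and 14 between (10.4% of all genes passed in either direction). GJB6 was 1.68-fold higher under the inhibitor (interval 1.60 to 1.77) and CLDN4 was 1.51-fold higher (1.43 to 1.59). DSC1 was lower at a ratio of 0.334 (0.263 to 0.421), on 95 against 320 UMIs. The median member had a log2 ratio of -0.14 and the median of all genes was -0.06. By cluster the ratios were 1.64 and 1.97 for GJB6 and 1.52 and just under 1.5 for CLDN4 in clusters 13 and 36, and 0.352 for DSC1 in cluster 36.

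The cluster split brought out further members at day 7. In cluster 13 CLDN1 had a ratio of 0.572 (0.505 to 0.648), DSG1 of 0.583 (0.516 to 0.657) and CDH13 of 0.609 (0.511 to 0.724), while in cluster 36 CLDN1 and DSG1 stood at 0.940 and 0.869. CDH13 went the other way in cluster 36, at 2.08 (1.2 to 3.69) on 39 against 22 UMIs. In that cluster OCLN had a ratio of 0.399 (0.216 to 0.704) on 17 against 50 UMIs, and TJP1 of 0.610 (0.368 to 0.988) on 27 against 52. The early differentiation keratins were lower in both clusters, KRT10 at 0.530 and 0.438 and KRT1 at 0.269 and 0.549. Their part in the junction gene ratios was not tested. The GJB6 ratio came to 1.47 as a mean of single-cell CPM, and the CLDN4 ratio to 1.46 under the stricter cell filter and 1.49 on a median-ratio scale, all under the 1.5-fold mark.

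The vessel wall at day 7 was marked by GJA4. In mural-like cells 9 members were compared, and GJA4 at 0.474 (0.457 to 0.491) and CDH24 at 0.594 (0.509 to 0.693) were lower, with none higher (8.17% of all genes passed). GJA4 was lower in each cluster of the class, at 0.422, 0.546 and 0.653 in clusters 0, 1 and 5, and CDH24 at 0.597, 0.686 and 0.513. Over 13 alternative settings the GJA4 ratio of this class lay between 0.462 and 0.526. In blood endothelial-like cells 10 members were compared, and CDH11 at 0.359, GJA4 at 0.512 (0.482 to 0.545) and GJA5 at 0.606 (0.513 to 0.713) were lower, with none higher (8.31% passed).

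The endothelial calls moved with cluster 15, whose share of the cells was 26.1% in the untreated and 11.9% in the inhibitor graft. By UMIs, which set the class levels, it weighed more. Its median UMIs per cell were 17474 and 16678, against 5524 and 4805.5 in cluster 4. GJA4 stood at 582 and 448 CPM within cluster 15, a ratio of 0.770, and at 57.3 and 57.4 CPM in cluster 4, a ratio of 1.0. Without cluster 15 the class ratio of GJA4 was -0.06 on the log2 scale. In cluster 11, which is not part of that class, GJA4 stood at 558 and 341 CPM, a ratio of 0.611, and GJA5 at 272 and 75.6 CPM, a ratio of 0.278 (0.209 to 0.364), which is 3.59-fold lower. GJA5 in the blood endothelial-like class turned to a log2 ratio of 0.27 without cluster 15. CDH11 in cluster 15 stood at 37.3 and 22.1 CPM and in clusters 2 and 4 at 1.04 to 1.77 CPM, and with each library clustered alone its class ratio was 1.96. The pericyte gene RGS5 in cluster 15 stood at 2670 and 2595 CPM in these libraries. Whether that cluster holds endothelial cells joined with pericytes was not tested.

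Fibroblast-like cells had few member genes to compare at day 7. Of 5 members, DSC2 was 1.56-fold higher (1.34 to 1.81) at 25.4 against 16.3 CPM and the others, GJA1, TJP1, CDH13 and CDH11, were between (8.01% of all genes passed). DSC2 lay in cluster 7, led by MMP13 and IL11, at 43.7 CPM in the untreated and 48.3 in the inhibitor graft, a ratio of 1.11, and at no more than 4.19 CPM in clusters 3 and 6. Cluster 7 made up 27.4% of the untreated and 43.0% of the inhibitor fibroblast-like cells. With the clusters weighed equally the class ratio of DSC2 was 0.992, and with each library clustered alone it was 5.50.

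At day 90 the difference between arms lay in the epidermis, on few cells. Of 17 members compared in keratinocyte-like cells, 8 were higher, 1 lower and 8 between. Of all genes 24.4% passed in either direction, 15.1% higher and 9.31% lower. GJB6 was 6.47-fold higher (3.34 to 14.4) on 191 against 9 UMIs, and DSC1 was 5.12-fold higher (3.18 to 8.75) on 302 against 18 UMIs. CLDN1 was 3.13-fold higher (2.40 to 4.15), DSG1 2.25-fold (1.84 to 2.77), CDH1 1.91-fold (1.27 to 2.98), DSP 1.77-fold (1.52 to 2.05) and DSG3 1.54-fold (1.17 to 2.05). OCLN was 3.51-fold higher on 46 against 4 UMIs, with an interval from 1.28 to 13.4. The median log2 ratio was 0.45 over the members and 0.00 over all genes.

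These day 90 values rest on 65 inhibitor and 29 untreated cells, and 10 cells held 81.1% of the UMIs of the untreated class. The share of cluster 36 was 20.7% in the untreated and 50% in the inhibitor graft, and KRT10 stood at 3620 and 11655 CPM. COL1A1, a fibroblast gene, stood at 1052 CPM in the untreated and 210 in the inhibitor keratinocyte-like class, and COL3A1 at 153 and 59.3. The part of these genes in the ratios was not tested. As a mean of single-cell CPM the ratio was 3.96 for GJB6, 2.61 for DSC1 and 9.20 for OCLN, and 1.42 for DSP, which is under the rule. Without any barcode shared between libraries the ratios were 8.69 for GJB6, 5.21 for DSC1, 4.30 for OCLN, 3.62 for CLDN1, 2.31 for DSG1, 1.82 for DSP, 1.67 for CDH1 and 1.66 for DSG3. Under the stricter cell filter the untreated class fell under 25 cells and gave no value.

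Outside the epidermis few of these genes passed the rule at day 90. None of the 10 members compared in blood endothelial-like cells reached 1.5-fold (2.18% of all genes did), with CLDN5 at 1.38 and GJA1 at 0.744 the ends of the range. None of 9 did so in mural-like cells (5.62%), where GJA4 stood at a ratio of 1.03 (0.994 to 1.07). In fibroblast-like cells 1 of 6 did, DSC2 at 0.307 (0.254 to 0.370), with 11.1% of all genes passing. DSC2 stood at 27.6 and 26.9 CPM in cluster 9, led by THBS4 and TNMD, a ratio of 0.972, and that cluster made up 51.4% of the untreated and 22.0% of the inhibitor fibroblast-like cells. In lymphatic endothelial-like cells CLDN5 stood at 2686 and 1613 CPM, a ratio of 0.600.

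Each graft was also compared with unwounded skin. The 4 comparisons share that 1 library, so their values are given side by side and are not independent of each other. In keratinocyte-like cells of the untreated day 7 graft 3 of 18 members were higher and 6 lower (40.8% of all genes passed), and of the inhibitor day 7 graft 2 of 17 were higher and 6 lower (50.9%). GJB6 was 6.15-fold and 10.4-fold higher in these grafts, CLDN4 1.56-fold and 2.35-fold, and PKP2 6.16-fold in the untreated one. The CLDN4 call of the untreated graft held in 9 of 13 alternatives. DSC1 had ratios of 0.274 and 0.0914, CLDN1 of 0.464 and 0.342, OCLN of 0.472 and 0.324, DSG1 of 0.481 and 0.347 and JUP of 0.520 and 0.539. OCLN was under the minimum of 20 CPM in both grafts and was compared through unwounded skin alone. PKP3 was lower in the untreated graft at 0.631 and DSP in the inhibitor graft at 0.581. PKP2 in the inhibitor graft lay just under the minimum of 20 CPM and was not compared in the class, but in cluster 13 it was 5.46-fold its unwounded level, on 108 against 6 UMIs. These shares of members are near those of all genes.

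At day 90 the arms stood on different sides of the size rule. In the untreated graft 8 of 17 members were lower in keratinocyte-like cells and none higher (30.7% of all genes passed), namely DSC1 at 0.253, CLDN1 at 0.305, OCLN at 0.357, GJB6 at 0.367, CDH1 at 0.478, DSG1 at 0.499, and DSP and DSG3 at 0.591 each. In the inhibitor graft none of 17 was lower and GJB6 was 2.38-fold higher (17.6% passed). GJB6 came to 0.526 there as a mean of single-cell CPM. Without shared barcodes DSC1 stood at 0.192, 0.0655 and 0.171 in the untreated and inhibitor day 7 grafts and the untreated day 90 graft, CLDN4 in the untreated day 7 graft at 1.40, and GJB6 in the inhibitor day 90 graft at 2.97.

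In blood endothelial-like cells GJC1 was higher than in unwounded skin in all 4 grafts, at 2.99, 2.36, 2.13 and 1.62 for the untreated and inhibitor grafts at day 7 and then at day 90. GJA1 was 2.23-fold and 1.88-fold higher at day 7. OCLN was lower at 0.204 and 0.210 at day 7 and 0.540 in the untreated day 90 graft. GJA5 was 1.51-fold higher in the untreated day 7 graft, and CDH11 at 0.315 and CDH13 at 0.664 were lower in the inhibitor day 7 graft. This makes 3 higher and 1 lower of 11 members for the untreated day 7 graft (36.1% of all genes passed), 2 and 3 for the inhibitor day 7 graft (41.4%), 1 and 1 for the untreated day 90 graft (15.3%), and 1 and 0 for the inhibitor day 90 graft (7.26%).

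By cluster, part of these endothelial values held and part did not. OCLN stood at 18.4 CPM in cluster 15 of unwounded skin against 4.75 and 7.08 at day 7, and at 34.3 CPM in cluster 11 against 14.8 and 8.68. GJC1 in cluster 15 was 2.54-, 2.61-, 2.06- and 1.60-fold the unwounded level, and in cluster 11 it was 3.17-, 3.06-, 1.62- and 0.737-fold. GJA1 was higher within cluster 15, at 1.92 and 1.61, but not in cluster 2, at 0.981 and 0.701, nor in cluster 11, at 1.19 and 0.957. Its high level at day 7 lay in cluster 4, at 693 and 493 CPM, which made up 64.8% and 77.8% of the blood endothelial-like cells at day 7 and 6.83% in the untreated day 90 graft. In cluster 11 GJA5 stood at 4.81, 1.34, 3.31 and 2.19 times its unwounded level in the 4 grafts, and GJA4 at 2.21, 1.35, 1.70 and 1.72 times. Without shared barcodes the class ratio of GJC1 was 4.12, 3.27, 2.50 and 1.83 and that of GJA5 in the untreated day 7 graft was 3.77.

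Several of these class ratios turned on cluster 15 or on the clustering. Without cluster 15 GJC1 was 8.33-fold and 8.68-fold higher at day 7, 2.36-fold in the untreated day 90 graft and at 0.745 in the inhibitor day 90 graft. With each library clustered alone it was 4.06-fold, 11.5-fold and 1.78-fold higher and at 0.591 in the same order. GJA5 in the untreated day 7 graft was 22.6-fold higher without cluster 15 and 46.7-fold with each library clustered alone. CDH11 in the inhibitor day 7 graft stood at 0.954 without cluster 15 and 2.91 with each library alone. The CDH13 call of that graft was lost in 6 of 13 alternatives. GJA1 at day 7 came to 1.17 and 0.897 under the stricter cell filter.

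Several mural genes were lower at day 7 than in unwounded skin. In mural-like cells none of 10 members was higher in any graft, and 4 were lower in the untreated day 7 graft (39.8% of all genes passed), 7 in the inhibitor day 7 graft (50%), 1 in the untreated day 90 graft (20.4%) and 1 in the inhibitor day 90 graft (8.91%). CLDN10, a claudin best known from kidney and secretory epithelia, was lower in all 4. It stood at 1.57 and 0.557 CPM at day 7, 18.4 and 18.9 at day 90, with 29.5 in unwounded skin, so the untreated day 7 graft was 18.8-fold lower. Only unwounded skin reached the minimum of 20 CPM, so CLDN10 was compared through the library where it was highest. The day 90 calls of CLDN10 held in 10 of 13 alternatives for the untreated and 11 of 13 for the inhibitor graft. CDH6 was lower at day 7, at 0.450 and 0.356, as was CDH11 at 0.633 and 0.451 and GJA5 at 0.623 and 0.465. GJA4 at 0.350, JUP at 0.483 and CDH24 at 0.642 were lower in the inhibitor day 7 graft. CDH11 was lower in each of clusters 0, 1 and 5 at day 7, at ratios from 0.475 to 0.641 in the untreated and from 0.367 to 0.450 in the inhibitor graft. Cluster 1 made up 40.8% and 53.1% of the class at day 7 and 2.88% to 8.17% in the other libraries. With the clusters weighed equally GJA5 stood at 0.805 and 0.747 at day 7, JUP at 0.670 in the inhibitor graft, none of which passes the rule, and CDH6 at 0.661 and 0.590.

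In fibroblast-like cells GJA1 was higher than in unwounded skin in all 4 grafts, at 2.81, 2.61, 2.42 and 1.72. JUP was lower in all 4, at 0.457, 0.274, 0.564 and 0.658, the last a call that was lost in 6 of 13 alternatives. Desmosome partners and keratins were also lower in these cells. PKP4, PERP, PPL, KRT5 and KRT10, the 5 desmosome partners compared, were all lower in both day 90 grafts. Their median log2 ratio was -3.89 in the untreated and -1.87 in the inhibitor graft. At day 7 PKP4, PERP and PPL were lower in both grafts, and KRT5 and KRT14 in the inhibitor graft. Their part in the JUP ratios was not tested. CDH11 was 1.59-fold higher in the untreated day 7 graft. DSC2 was 3.18-fold higher in the inhibitor day 7 graft and 3.80-fold in the untreated day 90 graft. In the untreated day 7 graft, as in unwounded skin, DSC2 lay under the minimum of 20 CPM and was not compared. CDH13 was lower at 0.664 in the inhibitor day 7 graft, a call that held in 9 of 13 alternatives. This gives 2 higher and 1 lower of 5 members (47.5% of all genes passed), 2 and 2 of 6 (56.4%), 2 and 1 of 6 (40.3%) and 1 and 1 of 5 (24.2%) in that order of grafts. In cluster 3, which held 98.8% of the unwounded fibroblast-like cells, GJA1 stood at 287, 261, 312 and 306 CPM in the grafts against 222 CPM. Clusters 6, 7 and 9 had 468 to 834 CPM. With clusters weighed equally the class ratios of GJA1 were 1.29, 1.18, 1.41 and 1.38, and those of DSC2 were 1.31 in the inhibitor day 7 and 1.15 in the untreated day 90 graft. DSC2 in these grafts came to 16.6-fold and 20.4-fold under the looser cell filter and to 15.4-fold and 18.7-fold with doublets kept.

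Partner genes of the junctions were compared by the same rule and read against the same shares of all genes, which in keratinocyte-like cells are 10.4% at day 7 and 24.4% at day 90. Among catenins and other adherens partners 7 were compared in keratinocyte-like cells, and 1 of them, NECTIN1, was lower at day 7, while CTNND1 (p120-catenin) and AFDN were higher at day 90. CTNNB1 (beta-catenin) stood at 150 and 123 CPM at day 7, 180 and 222 at day 90, with 275 in unwounded skin. Of 7 tight junction partners, AMOTL1 and AMOTL2 were lower at day 7 and F11R, PATJ and PARD3 were higher at day 90. In mural-like cells PARD3 and AMOTL1 were among the 3 of 9 lower at day 7 (8.17% of all genes passed in either direction). In blood endothelial-like cells none of 10 reached the rule on either day (8.31% of all genes at day 7 and 2.18% at day 90).

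Desmosome and cornified envelope partners include the keratins that desmosomes hold. Of 5 compared between the arms, KRT10 was lower at day 7, and PERP and KRT10 were higher at day 90. Against unwounded skin PPL (periplakin), EVPL (envoplakin) and KRT10 of 6 were lower and PKP4 was higher in the untreated day 7 graft (40.8% of all genes passed). PERP, PPL, EVPL and KRT10 were lower in the inhibitor day 7 graft (50.9%). PPL stood at 38.3 and 31.4 CPM at day 7, 68.0 and 87.4 at day 90, with 102 in unwounded skin. Among genes that repress or maintain the epithelial state, SNAI1 of 5 was higher at day 7 in keratinocyte-like cells, and OVOL1 and ESRP1 of 3 were higher at day 90. No pannexin or connexin partner of 6 measured was high enough to compare in any of the 4 classes between the arms.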

How the data were processed

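Single-cell RNA was measured in 5 pig skin libraries with 10x Single Cell 3′ v3 chemistry. The deposited matrices hold raw UMI counts per gene and barcode, for which the submitters' processing notes name Cell Ranger and, for steps not used here, Seurat 3.1.1. The genome build is not given in the sources used here. Cells under 500 genes or above 25% mitochondrial UMIs were dropped. The automatic Scrublet threshold called 0, 0, 83, 3 and 5 doublets, so the 524, 700, 255, 116 and 19 cells with the highest scores were removed, at 0.8% per 1000 cells. Scanpy 1.11.5 clustered all libraries together (2000 variable genes without members, 30 components, 20 neighbours, leidenalg 0.10.2 at resolution 1) into 28 clusters. Marker lists of 17 classes (140 of 159 genes measured) named 22 of them, written "-like". Counts were summed per class and library and scaled to CPM with exact Poisson intervals (SciPy 1.17.1), and ratios have exact conditional binomial intervals. Members past 1.5-fold are named, up to 10 a class and direction, and some genes are not reported here. 10 other settings, and 5 more chosen after seeing the data, were run. The members, lists and settings were chosen with earlier results of these data known. All 71 symbols were found in the RefSeq table of the pig. DSC3 and GJB2 were not analysed here.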

Additional observations from a re-analysis of the deposited data

Results flagged for a closer look

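For DSC1 and DSC2 the inhibitor and untreated grafts stood in opposite order at day 7 and day 90. DSC1 in keratinocyte-like cells had a ratio of inhibitor over untreated of 0.334 at day 7 and 5.12 at day 90, log2 ratios of -1.58 and 2.36 and a difference of 3.94. DSC2 in fibroblast-like cells had ratios of 1.56 and 0.307, log2 ratios of 0.64 and -1.70 and a difference of -2.34. With 1 library per condition the difference between the days was not tested in either case. The DSC1 order at day 90 rests on 29 untreated cells. The DSC2 values moved with the shares of fibroblast clusters 7 and 9, within which the ratios were 1.11 at day 7 and 0.972 at day 90.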

How the results depend on the processing

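No paired analysis was possible because each condition is 1 library. With 24 members highest in the same class in all 4 grafts, 9 and 10 members past 1.5-fold between the arms at day 7 and day 90, and 63 against unwounded skin as the reported values, the stricter cell filter gave 12 members by class and 1 at day 90, since the untreated day 90 keratinocyte-like class fell under 25 cells. A 50 CPM minimum gave 4 at day 7, a 2-fold rule gave 3, 6 and 41 at day 7, at day 90 and against unwounded skin, and weighing the clusters of a class equally gave 5 at day 7. Leaving out cluster 15 gave 6, 11 and 65. Alternative values of 82 ratios past 1.5-fold numbered 1213. They include the 50 CPM minimum and the 2-fold rule, which leave every ratio as it is and could change no sign. Leaving out cluster 15, or counting cluster 11 as blood endothelial, could move only ratios of the blood endothelial-like class. Of the 1213 values, 8 changed sign. In blood endothelial-like cells these were GJA1 of the inhibitor day 7 graft against unwounded skin under the stricter filter (log2 -0.16), CDH11 with each library clustered alone (0.97 between the arms at day 7 and 1.54 for the inhibitor day 7 graft against unwounded skin), GJC1 of the inhibitor day 90 graft against unwounded skin with each library alone (-0.76) and without cluster 15 (-0.43), and GJA5 between the arms at day 7 without cluster 15 (0.27). GJB6 in keratinocyte-like cells of the inhibitor day 90 graft against unwounded skin came to -0.93 as a mean of single-cell CPM, and DSC2 in fibroblast-like cells at day 7 to -0.012 with clusters weighed equally. The cause was not tested. The day 90 epidermis is limited by its number of cells, 29 and 65.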
